A study of Drosophila melanogaster with 2 samples.

Results

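The nuclear transfer RNA (tRNA) genes of Drosophila melanogaster were examined for binding of the product of CG11398, an X-linked gene, in whole embryos. Members were all genes on chromosomes 2, 3, 4 and X whose symbol begins with tRNA: in the Ensembl annotation of the dm6 build, which gave 295 of the 18164 annotated genes that are not transposons. Binding was measured by chromatin immunoprecipitation and sequencing (ChIP-seq) with an antibody to GFP. The embryos came from a single transgenic line, CG11398-GFP, that stably expresses CG11398 with eGFP at its C terminus. They were 0 to 24 h old, untreated as far as the labels say, and pooled over both sexes and over all cell types, so a region bound in few cells cannot be told apart from one bound weakly in many. The 2 samples form 1 group of biological replicates, numbered 1 and 3. No group without the tagged protein was analysed here, and no RNA was measured, so cell types could not be checked by markers. Each replicate had a relaxed list of 30000 regions, in which background regions are kept on purpose. Pooling both replicates had given another such list of the same length, and the thresholded list held 2712 peaks that passed a test of reproducibility between replicates. The lists carry no read counts, so the depth behind them is unknown.

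tRNA genes are transcribed by RNA polymerase III from a promoter that lies inside the gene, made of an A box near its start and a B box in the part that encodes the T arm. The factor TFIIIC binds these boxes and places TFIIIB, which recruits the polymerase, just upstream of the start. In Drosophila, TFIIIB contains the TBP-related factor Trf in place of TBP. A tRNA is named for the amino acid it carries (its isotype) and the anticodon with which it reads messenger RNA, and many tRNA genes lie in clusters of identical or related copies.

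Of the 295 genes, 290 were annotated as tRNA and 5 as pseudogenes, although all 5 bear the tRNA: prefix. They covered 22 classes of isotype, with initiator methionine (iMet) and selenocysteine (SeC) counted apart, and 45 anticodons. Gene length ran from 71 to 186 bp, and 16 genes had an intron. A run of 4 T, the termination signal of RNA polymerase III, lay within 40 bp downstream of 292 genes. The B box word GTTCGANTC was present on the gene's own strand in 114 spliced genes, and 249 genes held it with at most 1 mismatch. Searched on both strands in 300 bp windows centred on the gene start, the same word was at 39.0% of the 295 tRNA genes, against 1.61% of all genes. All genes include the tRNA genes, which raise the 1.61%. Windows of that length centred on summits held it at 1.29% of the 2712 thresholded summits and at 0.9% of the 30000 pooled relaxed ones. The share in genes other than tRNA genes is not given here, so these summit shares cannot be called high or low.

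The spliced sequences of 4 genes that recur in the results show this shared structure. They were read 5′ to 3′ from the RefSeq copy of the Release 6 (dm6) genome, and the capitals mark the closest match to the B box word, with 1 mismatch in each. tRNA:Tyr-GTA-1-8 lies at chr3R:8669081-8669174, tRNA:Val-CAC-2-5 at chr3R:19672277-19672349, tRNA:Asp-GTC-1-4 at chr2L:8541552-8541623 and tRNA:Pro-TGG-1-5 at chr3R:18628467-18628538, all on the minus strand.
tRNA:Tyr-GTA-1-8: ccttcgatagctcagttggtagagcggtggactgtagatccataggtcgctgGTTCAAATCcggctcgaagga
tRNA:Val-CAC-2-5: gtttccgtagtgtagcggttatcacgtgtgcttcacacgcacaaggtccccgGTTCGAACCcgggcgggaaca
tRNA:Asp-GTC-1-4: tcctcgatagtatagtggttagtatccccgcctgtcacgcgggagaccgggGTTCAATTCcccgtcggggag
tRNA:Pro-TGG-1-5: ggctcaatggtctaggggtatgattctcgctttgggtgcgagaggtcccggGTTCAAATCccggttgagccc

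The strongest thresholded peak at a tRNA gene had its summit 193 bp upstream of tRNA:Tyr-GTA-1-8. The window from 200 bp upstream to the end of that gene (chr3R:8669081-8669374, minus strand) is printed with the exons of the gene in capitals, so that the intron is the lower-case stretch between them and the summit is near the left end. For 3 other peaks the sequence around the summit is given on the strand of the tRNA gene, with 21 bases centred on the summit in capitals. The peak at tRNA:Gln-TTG-2-1 (chrX:3427643-3427753) is shown because no protein-coding start was near it, and those at tRNA:Val-CAC-2-5 (chr3R:19671809-19671919) and tRNA:Phe-GAA-1-2 (chrX:6744243-6744333) because one was. None of these 3 windows holds an annotated exon, and each lies outside the tRNA gene it is named for.
tRNA:Tyr-GTA-1-8 window: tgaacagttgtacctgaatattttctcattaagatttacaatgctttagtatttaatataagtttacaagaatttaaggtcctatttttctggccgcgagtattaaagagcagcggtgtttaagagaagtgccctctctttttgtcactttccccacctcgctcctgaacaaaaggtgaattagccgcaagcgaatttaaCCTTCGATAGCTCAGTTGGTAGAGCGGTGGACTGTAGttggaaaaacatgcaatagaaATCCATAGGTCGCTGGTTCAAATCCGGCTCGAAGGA
tRNA:Gln-TTG-2-1 peak: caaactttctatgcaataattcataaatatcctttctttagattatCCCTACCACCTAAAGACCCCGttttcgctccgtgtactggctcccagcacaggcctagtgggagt
tRNA:Val-CAC-2-5 peak: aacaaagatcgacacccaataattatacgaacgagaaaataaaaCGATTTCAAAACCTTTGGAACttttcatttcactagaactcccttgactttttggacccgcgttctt
tRNA:Phe-GAA-1-2 peak: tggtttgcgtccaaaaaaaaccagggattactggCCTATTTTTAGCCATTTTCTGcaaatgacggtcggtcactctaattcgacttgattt

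Few tRNA genes had a thresholded peak. A summit of the thresholded list lay within 500 bp of the annotated start, on either side, for 11 of 295 tRNA genes, a share of 3.73% (exact 95% binomial interval 1.88 to 6.57%, which covers counting error only and treats clustered genes as independent). The same rule called 9.25% of all genes, 10.9% of protein-coding genes and 5% of the 400 snoRNA, snRNA and rRNA genes. The 11 tRNA genes carried 10 distinct peaks, because tRNA:Arg-CCT-1-2 and tRNA:Arg-CCT-1-3 shared one, and these were 0.369% of the thresholded list. No test was run on any of these shares: the counts describe where the listed regions lie.

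The summits that were called stood beside tRNA genes and not on them, but thresholded summits were few at every distance. From 1000 bp upstream to 1000 bp downstream, tRNA genes had a mean of 0.390 per 100 genes in each 100 bp bin. At so low a mean, a count of 0 on the genes cannot be read as avoidance of them. No thresholded summit fell inside any of the 295 genes, which allows a share of up to 1.02% (3 counts of 295), and the closest was 174 bp from any base of a tRNA gene. The peak region itself reached over 4 tRNA genes: tRNA:Phe-GAA-1-2, tRNA:Glu-TTC-1-5, tRNA:His-GTG-1-3 and tRNA:Gln-TTG-2-1. The distance from the start ran from 174 to 484 bp, with a median of 254 bp. The summit was upstream for 6 genes and downstream for 5. Within 150 bp of the start there were 0 of the 11 tRNA genes' summits, against 940 of 1680 (56.0%) for all genes and 890 of 1520 (58.6%) for protein-coding genes. Median distances were 254 bp at tRNA genes, 130 bp at all genes and 123 bp at protein-coding genes. The small non-coding genes other than tRNA had a median of 175.5 bp, with 8 of 20 within 150 bp.

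**Figure D1:**
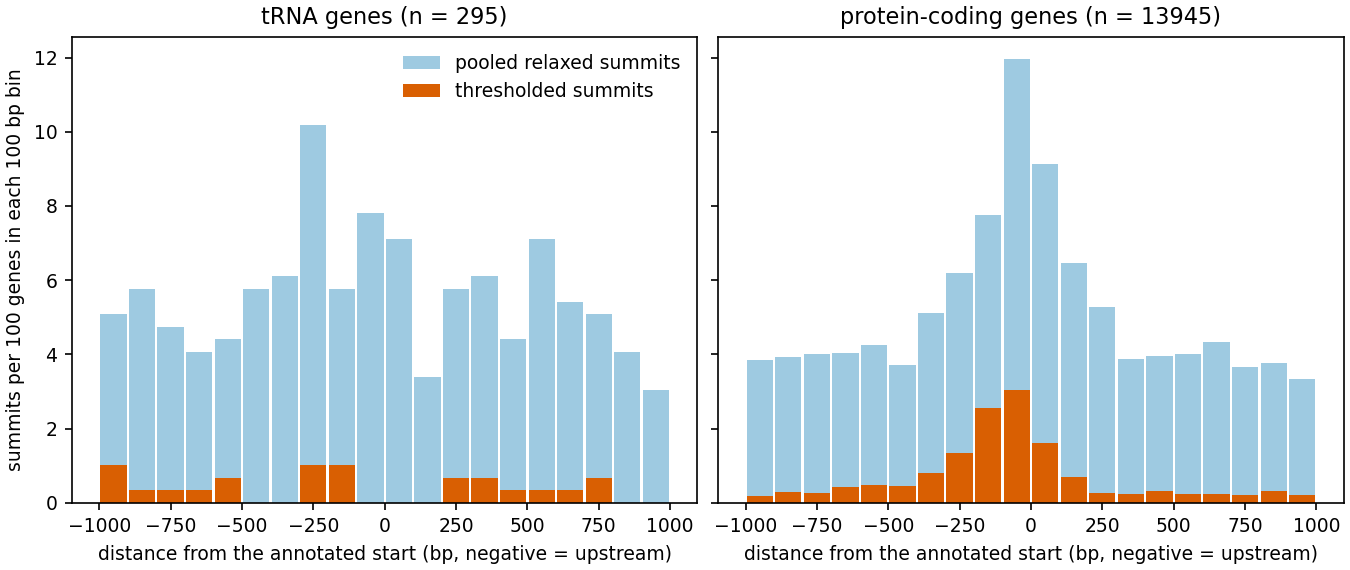
Number of summits per 100 genes in each 100 bp bin around the annotated start, for the 295 tRNA genes (left) and the 13945 protein-coding genes (right), with pooled relaxed summits in light blue and thresholded summits drawn over them in orange. A summit near several genes is counted once for each. The bars of protein-coding genes peak in the bins beside the start, up to 12.0 relaxed and 3.04 thresholded summits per 100 genes, while the tRNA genes have 0 thresholded summits in those bins.

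Between 1000 bp upstream and 1000 bp downstream, tRNA genes had 328 relaxed summits, with a summit near several genes counted once for each. This was a mean of 5.56 per 100 genes in each 100 bp bin, against 5.13 at protein-coding genes. Distinct relaxed regions within 500 bp of tRNA genes numbered 132. The tRNA bins ranged from 3.05 to 10.2, and the highest was the bin that begins 300 bp upstream. In the bins beside the start, tRNA genes averaged 7.46 relaxed summits per 100 genes and protein-coding genes 10.5. For thresholded summits these bins averaged 0 at tRNA genes and 2.32 at protein-coding genes. Over all bins the thresholded means were 0.390 at tRNA genes, from 23 summits, and 0.710 at protein-coding genes. The tRNA values in the bins beside the start rest on 44 relaxed and 0 thresholded summits, counted in the same way.

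Of the 10 peaks, 6 had the start of a protein-coding transcript (a transcription start site, TSS) within 500 bp of the summit and 4 did not. The same share over all 2712 thresholded peaks is not given here, so 6 of 10 cannot be called high or low. In 5 of the 10 the protein-coding TSS was nearer than the tRNA start, and in the other 5 the tRNA start was nearer. The median signal was 155.2 for the 6 peaks near a protein-coding TSS and 100.6 for the 4 without, in the authors' deposited signal, which has no stated normalization and is used here only to describe regions within a list. Over all 10 the median was 126.8, against 115.1 for the 2712 thresholded peaks, and 7 of the 10 were above that value. These positions say which starts are near each summit, and what the protein was bound to was not tested.

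**Figure D2:**
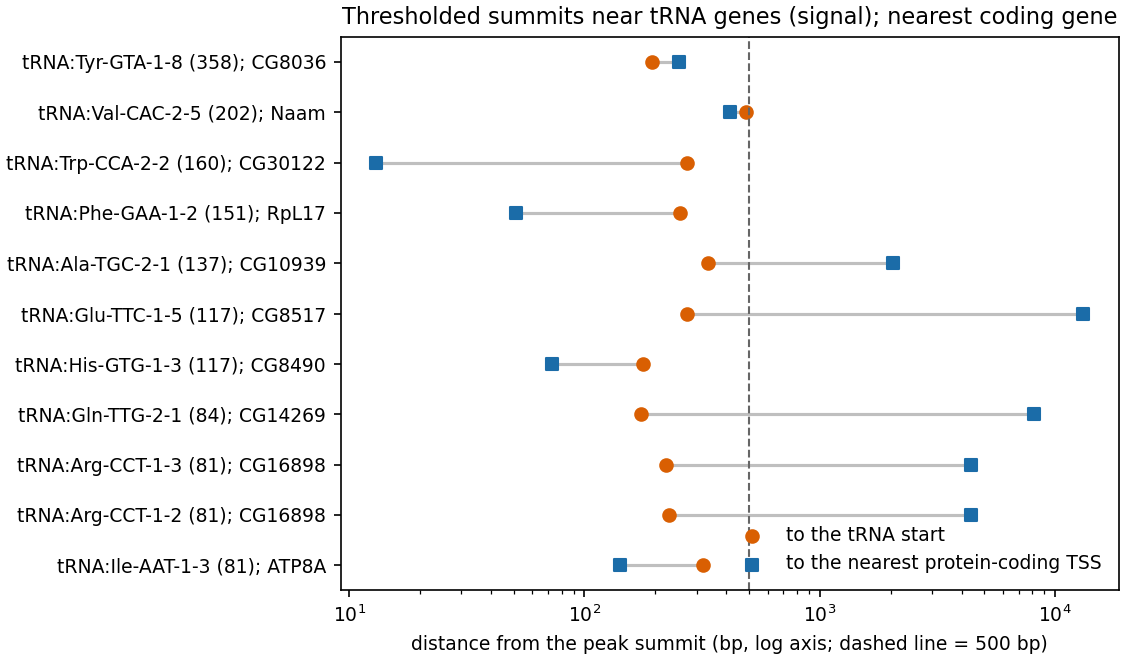
Distance from the peak summit to the tRNA start (orange circles) and to the nearest protein-coding TSS (blue squares) in bp on a log axis, for the 11 tRNA genes with a thresholded summit, ordered by pooled signal, which stands in brackets. All circles lie between 174 and 484 bp; 5 squares lie far beyond the dashed line at 500 bp, at 2044 bp or more, and belong to 4 peaks.

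Among the 6 peaks near a protein-coding TSS, the one at tRNA:Tyr-GTA-1-8 had the highest signal, 358 in the pooled list (rank 111 of 2712), with 199 in replicate 1 and 160.2 in replicate 3. Its gene carries tyrosine tRNA, has an intron and lies inside an intron of p, a gene named for the pink eye colour of its mutants. The region covers chr3R:8669266-8669495, and the nearest protein-coding TSS was that of CG8036, 251 bp from the summit. It was the only one of these 6 summits that lay nearer the tRNA start, at 193 bp. In both replicates this tRNA gene had the highest signal of any tRNA gene.

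The peak downstream of tRNA:Val-CAC-2-5 (chr3R:19671657-19672072) had a pooled signal of 202 (rank 424), with 119 in replicate 1 and 82.0 in replicate 3. This valine tRNA gene lies in an intron of Naam, which encodes a nicotinamidase, and the summit was 484 bp from the tRNA start and 415 bp from the TSS of Naam, so both starts were at the outer part of the window. The peak upstream of tRNA:Trp-CCA-2-2 (chr2R:18639075-18639490) had a pooled signal of 160 (159.6 before rounding, rank 695), with 98.5 in replicate 1 and 70.7 in replicate 3. Its summit was 13 bp from the TSS of CG30122 and 274 bp from the tryptophan tRNA gene.

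The remaining 3 peaks of this kind were also nearer the protein-coding start. At tRNA:Phe-GAA-1-2, a phenylalanine tRNA gene, the region (chrX:6744081-6744496) had 150.8 in the pooled list, with 93.1 in replicate 1 and 60.3 in replicate 3, and its summit was 51 bp from the TSS of RpL17, a protein of the large ribosomal subunit. At tRNA:His-GTG-1-3 the region (chr2R:12335035-12335450) had 117, with 56.6 in replicate 1 and 63.7 in replicate 3, and the TSS of CG8490 was 73 bp away. At tRNA:Ile-AAT-1-3 the region (chr2R:13429828-13430243) had 81.0, with 56.1 in replicate 1 and 22.2 in replicate 3. Its summit was 141 bp from a TSS of ATP8A, which encodes a phospholipid-flipping ATPase, and 319 bp downstream of the isoleucine tRNA start. In replicate 3 this peak was the lowest of the 10.

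The 4 peaks with no protein-coding TSS within 500 bp were at alanine, glutamic acid, glutamine and arginine tRNA genes. At tRNA:Ala-TGC-2-1 the region (chr2R:17392341-17392756) had a pooled signal of 137 (rank 944), with 78.6 in replicate 1 and 49.5 in replicate 3, and its summit lay 334 bp downstream of the tRNA start and 2044 bp from the nearest protein-coding TSS, that of CG10939. At tRNA:Glu-TTC-1-5 the region (chr2R:19727049-19727464) had 117, with 66.0 in replicate 1 and 54.0 in replicate 3. There the nearest annotated start was that of a small nucleolar RNA, 105 bp from the summit, while the tRNA start was 274 bp away and the nearest protein-coding TSS, CG8517, 13181 bp away. These are the stronger pair of the 4.

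The other pair lay close to the lowest signal of the thresholded list, 79.8. tRNA:Gln-TTG-2-1, a glutamine tRNA gene in an intron of CG12535, had a region (chrX:3427489-3427904) with 84.2 (rank 2447), with 48.8 in replicate 1 and 47.5 in replicate 3. Its summit was 174 bp upstream of the tRNA start and 8110 bp from the nearest protein-coding TSS, CG14269, and the summit in the list of replicate 1 was shifted by 107 bp. The region between tRNA:Arg-CCT-1-2 and tRNA:Arg-CCT-1-3 (chr2R:20000389-20000804) had 81.1 (rank 2630), with 37.3 in replicate 1 and 40.7 in replicate 3. It stood 229 bp upstream of the first and 222 bp upstream of the second, so the summit lies between the divergent arginine tRNA genes, and CG16898, the nearest protein-coding gene, was 4406 bp away. At tRNA:Ala-TGC-2-1, tRNA:Gln-TTG-2-1 and the arginine pair, no annotated start other than that of a tRNA gene lay within 500 bp of the summit.

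All tRNA genes were then grouped by their own distance from a protein-coding TSS. Of the 33 tRNA genes that start within 500 bp of one, 5 (15.2%) had a thresholded summit and 21 a pooled relaxed one. Of the 47 beyond that and up to 1000 bp, 1 had a thresholded summit and 25 a relaxed one. Of the 215 farther away, 5 (2.33%) had a thresholded summit and 102 a relaxed one, so the thresholded share was highest in the group nearest to protein-coding starts, on a count of 5 genes. Protein-coding genes were themselves called at 10.9% by the same rule, so 5 of 33 cannot be read as particular to tRNA genes. The median relaxed signal was 41.0 in the nearest group of tRNA genes, 36.8 in the middle one and 35.7 in the farthest.

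The 3 called genes farthest from their peak, but still within the 500 bp limit, were tRNA:Ile-AAT-1-3 at 319 bp, tRNA:Ala-TGC-2-1 at 334 bp and tRNA:Val-CAC-2-5 at 484 bp. Just outside were tRNA:Gly-GCC-1-9 at 513 bp, from the same peak beside CG30122 that called tRNA:Trp-CCA-2-2, tRNA:Ile-AAT-1-9 at 524 bp (signal 161.8) and tRNA:Leu-CAA-2-2 at 586 bp (signal 106.8). For the last of these the nearest protein-coding TSS was that of caps, 15169 bp from the summit.

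In the pooled relaxed list the share of tRNA genes was close to the background. A relaxed summit lay within 500 bp of 148 tRNA genes (50.2%), against 45.2% of all genes, and 147 tRNA genes (49.8%) had none. In both replicates there was one for 92 tRNA genes (31.2%), against 33.3% of all genes. Because the genes are clustered, the 148 shared 110 distinct strongest regions. The strongest summit per gene had a median signal of 37.0 (quartiles 30.8 and 52.1) at tRNA genes, 45.5 (32.4 and 71.5) at all genes and 47.1 at protein-coding genes, while other small non-coding genes had 36.7. In the top 25% of the list were 44 of the 148 tRNA genes (29.7%), against 47.6% of all genes with such a summit. The nearest relaxed summit was at a median of 234.5 bp from tRNA starts and 142 bp from the starts of all genes.

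The 137 tRNA genes with a relaxed but no thresholded summit had signals from 23.3 to 78.2, with a median of 35.7. The highest was a region shared by tRNA:Asp-GTC-1-4 and tRNA:Asp-GTC-1-5, aspartic acid tRNA genes on chromosome arm 2L, with 78.2 in the pooled list (rank 2818 of 30000), 37.0 in replicate 1 and 40.1 in replicate 3. Its summit was 199 bp from a TSS of Sema1a, a transmembrane semaphorin that guides axons. The next was shared by tRNA:Glu-TTC-1-4, tRNA:iMet-CAT-1-1 and tRNA:iMet-CAT-1-2, with 73.2 in the pooled list (rank 3215), 33.5 in replicate 1 and 29.4 in replicate 3. That summit was 11851 bp from the nearest protein-coding TSS and lay 22 bp into tRNA:iMet-CAT-1-2, a gene for the initiator tRNA that starts translation.

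A pooled relaxed summit lay inside 15 of the 295 tRNA genes (5.08%), while relaxed regions reached over 77. Around tRNA genes the mean was 5.56 relaxed summits per 100 genes in each 100 bp bin. The share inside the genes was near that level and cannot be read as particular to them. The 15 summits had signals from 23.4 to 73.2 with a median of 34.7, against a median of 33.6 for the whole pooled list, and 9 of them were above that value. In 5 of the 15 genes both replicates had a summit within 100 bp of it, in 8 one replicate did, and in 2 neither. The 5 were tRNA:iMet-CAT-1-2 at 73.2, tRNA:Glu-TTC-1-5 at 68.8, tRNA:Ile-AAT-1-4 at 52.1, tRNA:Ile-AAT-1-6 at 39.6 and tRNA:Pro-TGG-1-5 at 34.9 in the pooled list. At tRNA:Glu-TTC-1-5 this summit, 70 bp from the start, had 44.5 in replicate 1 and 21.2 in replicate 3, and it is distinct from the thresholded one 274 bp downstream. At tRNA:Pro-TGG-1-5 the replicates had 19.0 and 18.4, and no other tRNA gene lay within 5 kb. Of the 15 genes, 12 (80%) have an identical copy elsewhere in the genome, against 80.7% of all tRNA genes.

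**Figure D3:**
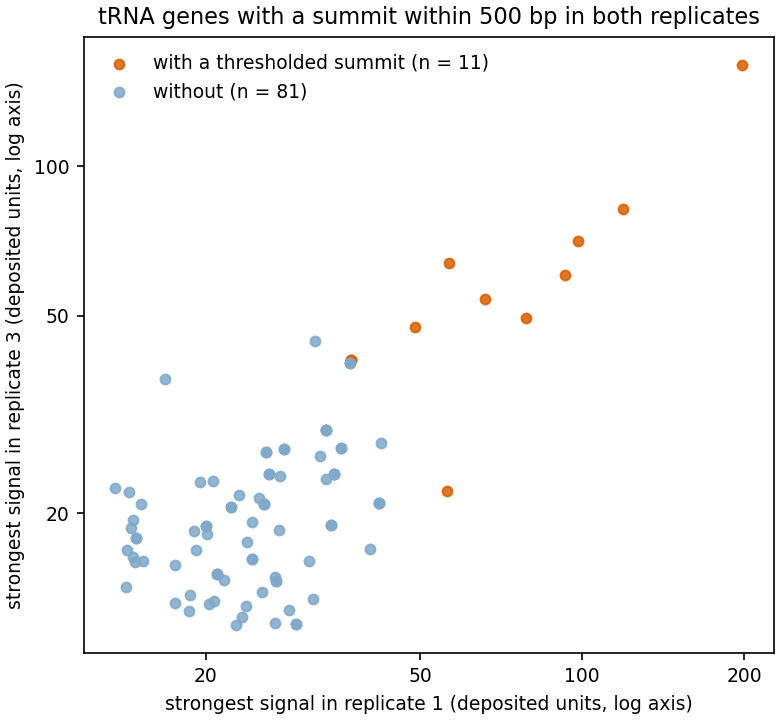
Strongest relaxed signal within 500 bp of the start in replicate 1 (x) and replicate 3 (y), on log axes in the authors' deposited units, for the 92 tRNA genes with a summit in both, with the 11 that had a thresholded summit in orange and the other 81 in blue. tRNA:Tyr-GTA-1-8 stands at the upper right with 199 and 160.2, and tRNA:Ile-AAT-1-3 is the orange point that falls among the blue ones in replicate 3, at 22.2.

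The replicates differed in how many tRNA genes they listed. Replicate 1 had a summit near 158 tRNA genes (53.6%) and replicate 3 near 122 (41.4%), with 66 in replicate 1 only, 30 in replicate 3 only and 107 in neither. The same shares over all genes are not given here, so this difference cannot be read as particular to tRNA genes. The signal had a median of 22.3 and a range of 13.6 to 199 at tRNA genes in replicate 1, whose whole list had a median of 20.3. In replicate 3 it had a median of 19.7 and a range of 11.9 to 160.2, with a list median of 17.0. All 11 tRNA genes with a thresholded summit had one in both replicates, which the choice of reproducible peaks for that list largely sets in advance. Across the 92 genes with both, Spearman's rho between the replicate signals was 0.572, which is a description over genes that share 70 distinct pairs of regions.

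**Figure D4:**
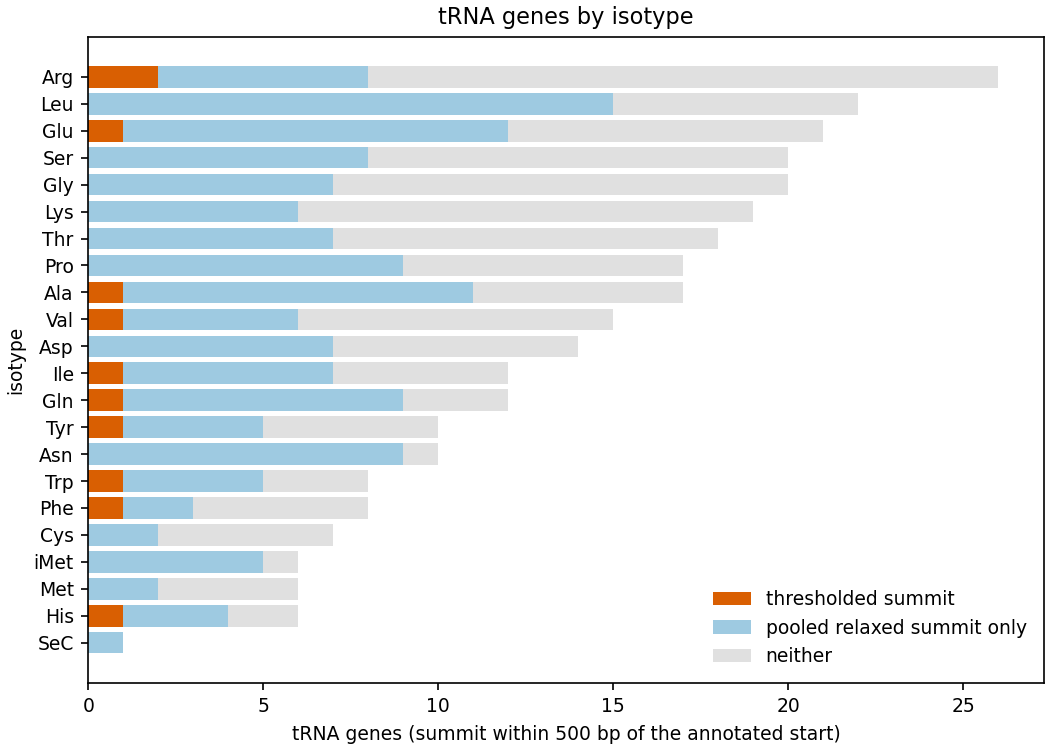
Number of tRNA genes of each isotype, split into those with a thresholded summit within 500 bp of the start (orange), those with a pooled relaxed summit only (light blue) and those with neither (grey). Arg is the only isotype with 2 orange genes, and 12 of the 22 classes have none.

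By isotype, the 11 genes were spread over 10 classes, with 2 for Arg and 1 each for Ala, Gln, Glu, His, Ile, Phe, Trp, Tyr and Val. The largest classes without one were Leu with 22 genes, Ser and Gly with 20 each and Lys with 19. Relaxed summits varied more: they were found near 9 of 10 Asn genes, 5 of 6 iMet genes, 9 of 12 Gln genes and 15 of 22 Leu genes, and near 8 of 26 Arg, 6 of 19 Lys and 2 of 7 Cys genes. By the same rule 45.2% of all genes had a relaxed summit, and 33.3% had one in both replicates. With both replicates required, the counts were 1 Asn, 4 iMet, 5 Gln, 6 Leu, 7 Arg, 6 Lys and 2 Cys genes. Leu, at 27.3%, was then close to Arg, at 26.9%. The Asn genes, which carry asparagine, show how sharing shapes such counts. Of their 9, tRNA:Asn-GTT-1-4, tRNA:Asn-GTT-1-5 and tRNA:Asn-GTT-1-6 shared a region of 42.8, and only tRNA:Asn-GTT-1-10 had a summit in both replicates, with 27.5 in replicate 1 and 23.8 in replicate 3. The isotypes have between 1 and 26 genes, and no difference between them was tested.

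On the chromosome arms, relaxed summits were near 70 of 100 tRNA genes on 2R, 18 of 41 on 2L, 19 of 49 on 3L, 37 of 79 on 3R and 4 of 26 on X, and chromosome 4 has no tRNA gene. The same share over all genes was 45.3% on 2R, 41.9% on 2L, 46.7% on 3L, 47.3% on 3R and 44.2% on X. In the pooled list tRNA genes were thus above all genes on 2R, at 70%, and below them on X, at 15.4%, while the other arms lay nearer. These shares treat clustered genes as independent, and no difference between arms was tested. On X, 1 cluster held 7 of the 26 genes, and 1 of these had a relaxed summit. The clusters next to it, up to chrX:14117810, had none. On 2R, 1 cluster of 11 genes had 6 near just 2 relaxed regions. With a summit required in both replicates, the tRNA share was 41% on 2R, against 33.1% of all genes there, 39.0% on 2L, against 30.7%, and 15.4% on X, against 32.8%, so 2R then lay close to 2L. The 4 genes on X were tRNA:Phe-GAA-1-2, tRNA:Gln-TTG-2-1, tRNA:Pro-CGG-2-1 and tRNA:Arg-TCG-2-1, and the first pair also had a thresholded summit. Of the others with a thresholded summit, 7 were on 2R (7% of its tRNA genes, against 8.93% of all its genes) and 2 on 3R (2.53%, against 9.97%). There were 0 on 2L and 3L, where 9.22% and 10.1% of all genes were called, and the 2 on X were 7.69% of its tRNA genes, against 7.71% of all its genes.

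Genomic clusters, in which neighbouring tRNA genes are at most 5 kb apart, numbered 146. Of these, 77 held a single gene, 53 held 2 to 3 genes and 16 held 4 or more, the last with 98 genes in all. A relaxed summit was near at least 1 gene in 81 clusters, and 65 had none. Thresholded summits touched 10 clusters, of which 3 were single genes, 4 had 2 to 3 genes and 3 had 4 or more. Single genes had a relaxed summit in 30 of 77 cases (39.0%), against 67 of 120 (55.8%) for genes in clusters of 2 to 3 and 51 of 98 (52.0%) for genes in larger ones.

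The 5 largest clusters differed from each other. At chr2R:6161535-6171759, 11 genes for lysine, arginine, asparagine and isoleucine tRNAs had 6 members near just 2 relaxed regions, with signals of 42.8 to 44.8, and the nearest thresholded summit was 10234 bp away. At chr3R:17617761-17631750, 11 genes for alanine, proline, threonine and valine tRNAs had 5 members with a relaxed summit, at 23.3 to 47.7, and the nearest thresholded summit 66509 bp away. These are the clusters with the most genes, and neither had a called member.

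At chr2R:19725620-19729353, 8 genes for glutamic acid and initiator methionine tRNAs all had a relaxed summit, 6 of them in both replicates, over 6 distinct regions with signals of 31.5 to 117, and this cluster holds tRNA:Glu-TTC-1-5. At chr2R:13430282-13432794, 7 genes for isoleucine and leucine tRNAs all had one, 6 in both replicates, at 30.1 to 81.0, and this cluster holds tRNA:Ile-AAT-1-3. At chrX:14014814-14017284, 7 genes for arginine and serine tRNAs had 1 member with a relaxed summit, at 24.7, and the nearest thresholded summit was 18665 bp away.

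Genes with identical copies raise the question of where reads were placed, which the lists do not record. The 295 genes had 100 distinct sequences, of which 57 were found once, and the largest set of identical genes had 13. A thresholded summit was near 3 of 57 genes with a single copy, 2 of 58 with 2 to 4 copies and 6 of 180 with 5 or more. A relaxed summit was near 25, 30 and 93 genes of these groups, shares of 43.9%, 51.7% and 51.7%. The 3 single-copy genes were tRNA:Tyr-GTA-1-8, tRNA:Ala-TGC-2-1 and tRNA:Gln-TTG-2-1. How read placement bears on the counts inside tRNA genes was not tested.

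The tRNA genes were also grouped by their position relative to protein-coding genes. Thresholded summits were near 4 of 130 tRNA genes in introns, 7 of 158 outside protein-coding genes and 0 of 7 that overlap a protein-coding exon. Relaxed summits were near 66, 77 and 5 of them. Of the 16 tRNA genes that have an intron themselves, 8 had a relaxed summit, and tRNA:Tyr-GTA-1-8 had a thresholded one. Among the 5 pseudogenes, tRNA:Glu-CTC-5-1Psi had a relaxed summit, at 31.5, and the other 4 (tRNA:His-GTG-2-1Psi, tRNA:Thr-AGT-3-1Psi, tRNA:Glu-CTC-6-1Psi and tRNA:Ile-AAT-2-1Psi) had none in the pooled list. The B box word was in 4 of the 11 genes with a thresholded summit, against 114 of all 295 tRNA genes. A run of 4 T lay downstream of all 11, against 292 of all 295, so neither sets the 11 apart.

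A chosen list of other genes transcribed by RNA polymerase III was set beside the tRNA genes. It held U6, 7SL and 7SK genes and the RNA genes of RNase P and RNase MRP. The list is partial and holds no rRNA gene. Of its 9 genes, 3 had a thresholded summit within 500 bp of the start, from 2 distinct peaks. The same rule called 9.25% of all genes and 5% of snoRNA, snRNA and rRNA genes. All genes include these 9, and any of them annotated as snRNA is also in the smaller class. snRNA:U6:96Ab and snRNA:U6:96Ac, copies of the U6 spliceosomal RNA, shared a peak of 119.7, with 71.0 in replicate 1 and 46.4 in replicate 3, 97 bp upstream of the second gene. snRNA:7SKa, a copy of the RNA that holds the elongation kinase P-TEFb inactive, had one of 142.7, with 89.1 in replicate 1 and 56.3 in replicate 3, 175 bp from its start. RNaseMRP:RNA had a relaxed summit only, at 48.3, and snRNA:U6:96Aa, snRNA:7SKb, RNaseP:RNA and both 7SL RNA genes had none.

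The protein genes that make and use tRNAs were counted from 3 lists, with any transcript start allowed, a rule that called 12.6% of protein-coding genes. A thresholded summit was near 9 of the 51 genes matched (17.6%). Their median relaxed signal was 42.2, against 48.5 for all protein-coding genes. A relaxed summit was near 41 of the 51, against 7341 of the 13945 protein-coding genes by the same rule, and this difference was not tested. Of 15 genes of RNA polymerase III and its factors, 4 were called. Bdp1, a subunit of TFIIIB, had 373 in the pooled list (rank 106), with 186 in both replicates, but its summit was 4 bp from the TSS of the neighbouring CG6565 and 125 bp from its own. Brf, the TFIIB-related subunit of TFIIIB, had 251 (rank 277), with 117 in replicate 1 and 129.5 in replicate 3, 100 bp upstream of its TSS. La, whose product binds the 3′ ends of new polymerase III transcripts, had 81.3, with 56.4 in replicate 1 and 21.8 in replicate 3.

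Of 20 cytoplasmic aminoacyl-tRNA synthetase genes, whose products load tRNAs with amino acids, 4 were called and 18 had a relaxed summit. SerRS had 191, with 84.3 in replicate 1 and 107.5 in replicate 3, 23 bp from its TSS, and IleRS had 128, with 75.2 in replicate 1 and 54.9 in replicate 3. At GluProRS (94.3) and TyrRS (85.8) the nearest TSS belonged to AP-1sigma, at 55 bp, and to CG33158, at 52 bp. Of 16 genes for tRNA processing and modification, Archease, a cofactor of the tRNA ligase RtcB, was called, at 80.9, and 13 had a relaxed summit. The lists are small, and 9 of 51 against a background of 12.6% was not tested.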

How the data were processed

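ChIP-seq of eGFP-tagged CG11398 was done on 2 biological replicates, numbered 1 and 3 per the labels, which form 1 group, with chromatin sheared by sonication. The authors made the peak lists, and their deposited notes say that each relaxed list came from alignments and a control and that the thresholded list holds the optimal set by irreproducible discovery rate. Aligner, peak caller and cutoffs: not given in the sources used here. Signal values were used as the authors deposited them, with no stated normalization. The deposited −log10 of the q-value was not used in any result. The summit came from the deposited offset. Lists in the dm3 build were not used.

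Summits were matched to genes of the Ensembl annotation (dm6) in Python 3.11.15 with numpy 2.4.6, scipy 1.17.1 and matplotlib 3.10.9, after the matching had been tested on simulated data. Each tRNA gene took the strongest summit within 500 bp of its start, and overlap meant at least 1 bp. Replicate values at a thresholded peak come from the regions of each replicate's list there. No p-value was computed, because the genes share regions and there is 1 group. The text names every tRNA gene with a thresholded summit, the 5 strongest without one, the 3 nearest on either side of 500 bp, the 5 largest clusters and every called gene of the protein lists but 1, which is not reported here. The Asn genes, the pseudogenes, the X-linked genes and the genes with a relaxed summit inside were named after their values were seen. One listed symbol, TfIIIA, was not matched. The members and lists were chosen with earlier results of these data known. Alternatives were windows of 200 and 1000 bp, cluster gaps of 2 and 10 kb, the stronger 50% of peaks, distance from regions or whole genes, and each replicate left out, by taking the 2712 top regions of the other.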

Additional observations from a re-analysis of the deposited data

How the results depend on the processing

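Of 52 recomputed values, 20 were classed as moved and 32 as the same, but counts among the 32 also shifted. Counting any base of the peak region in the window gave 16 tRNA genes with a thresholded peak, against 11. With a window of 1000 bp, 196 tRNA genes had a pooled relaxed summit, against 148. Without replicate 1, 9 of the called tRNA genes had a protein-coding TSS near, against 6. With a window of 200 bp, 3 tRNA genes in 3 clusters had one of 3 thresholded peaks (2 genes with a protein-coding TSS near), 67 had a pooled relaxed summit, 27 had one in both replicates, the median relaxed signal was 34.9 and the median offset of the nearest relaxed summit -21 bp, against -60.5 bp at 500 bp. With 1000 bp these were 23 genes with a thresholded summit (14 with a TSS near), 163 in both replicates, 41.5 and -63.5 bp. The stronger 50% of peaks left 7 tRNA genes and 4 machinery genes. Allowing 1 mismatch gave 249 genes with the B box word. Leaving out 1 replicate gave 9 to 14 genes with a thresholded summit. Without replicate 1 there were 14, of which 10 were among the 11: tRNA:Ile-AAT-1-3 was lost, and tRNA:Asp-GTC-1-4, tRNA:Asp-GTC-1-5, tRNA:Gly-GCC-1-9 and tRNA:Leu-TAA-2-1 were added. Without replicate 3 there were 9, and the tRNA:Arg-CCT-1-2 and tRNA:Arg-CCT-1-3 peak was lost. Median relaxed signal was then 19.7 to 22.3, on the scale of single-replicate lists, and median offset -49 to -46 bp. No paired analysis was possible because there is 1 group. The lists give no depth, so a missing summit means only that none was listed.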
